A study of Mus musculus with 36 samples.

Results

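The genes described here are Stc2 and Herpud1, which encode proteins tied to calcium and protein quality control in the endoplasmic reticulum (ER). They are read through 2 of the 27288 rows of the authors' deposited table, and both rows were among the 25588 that passed a filter on low counts and were tested. The rows were picked by name, with their difference between cultures given homocysteic acid (HCA) and cultures without it already known. That difference is therefore given as a description, without a test. Tests are given only for the effect of selenite, with and without HCA, and for the dependence of the HCA difference on the selenite dose.

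The names rest on an inference. The first row is labelled ENSMUSG00000055515, the identifier of the pheromone receptor gene Vmn2r81, and the second ENSMUSG00000028018, that of Gstcd. The values appear to stand 1 transcript away from their labels when the transcripts of GENCODE vM21 are sorted by identifier, so that each row holds the transcripts that precede those of its labelled gene. Read in this way, the first row holds 1 transcript, Stc2-201, of 3940 bases and 4 exons, at chr11:31357307-31370074 on the minus strand of GRCm38. It is the coding transcript of Stc2, and it is called the Stc2 row below. The second row holds 6 transcripts, because Gstcd has as many. They are Herpud1-205 (chr8:94386438-94395377, plus strand, 1952 bases, 8 exons), the coding transcripts Ints12-201, Sema3f-201, Ggact-203 and Sp140-206 of 4 other genes, and Gm10416-201, a locus of uncertain type. The level of this row is a sum over these transcripts, and it is called the Herpud1 row.

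The libraries came from primary cortical neuron cultures of embryonic day 15 CD1 mouse pups, plated for 24 h and treated for 6 h. Cultures received no HCA or 5 mM HCA, each with sodium selenite at 0 (the control, where HCA was absent too), 0.1 or 1, which makes 6 groups of 6 libraries. Selenite doses carry no unit here because mM stands in the sample labels and micromolar in the series text. The labels spell HCA out as homocysteic acid, a glutamate analogue that blocks cystine uptake, whereas the series text calls it an inhibitor of ferroptosis. Each of the 6 culture batches in the labels holds 1 library of every group, and the labels do not say whether a batch is a separate litter, so the p-values measure the spread between these cultures.

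Stanniocalcin-2, the product of Stc2, is a secreted glycoprotein that binds and inhibits the protease PAPP-A and so restrains release of insulin-like growth factor, and inside cells it is known to dampen store-operated calcium entry. The product of Herpud1 is a ubiquitin-like protein of the ER membrane that helps to assemble the Hrd1 (Syvn1) complex of ER-associated degradation, by which misfolded proteins leave the ER for the proteasome. Both genes are textbook targets of the unfolded protein response and of the transcription factor Atf4, which is translated when eIF2alpha is phosphorylated, as in amino acid shortage or ER stress.

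The sequences before the start of both genes are shown because these responses act through known promoter motifs. They are taken from RefSeq on GRCm38.p6, in which both genes had an entry, and each runs 5' to 3' on the strand of its gene. The Stc2 window is chr11:31370075-31370311 (minus strand, 237 bases, 63.3% G or C), ending next to the first annotated base of Stc2. The Herpud1 window is chr8:94386179-94386428 (plus strand, 250 bases, 69.2% G or C). Capitals mark matches to the motifs described next.

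Stc2: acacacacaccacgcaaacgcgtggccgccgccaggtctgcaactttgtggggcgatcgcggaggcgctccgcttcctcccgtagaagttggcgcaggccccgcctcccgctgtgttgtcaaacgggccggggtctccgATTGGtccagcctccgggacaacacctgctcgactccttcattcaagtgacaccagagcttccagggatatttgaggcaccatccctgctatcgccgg

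Herpud1: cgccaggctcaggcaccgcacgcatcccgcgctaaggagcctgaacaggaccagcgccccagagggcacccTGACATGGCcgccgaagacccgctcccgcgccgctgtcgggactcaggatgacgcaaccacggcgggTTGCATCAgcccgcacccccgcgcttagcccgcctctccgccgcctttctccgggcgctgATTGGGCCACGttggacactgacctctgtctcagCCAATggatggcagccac

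The motifs were textbook ones, chosen after these sequences had been seen, and were searched on both strands. In the Herpud1 window, TTGCATCA is the reverse complement of a match to the C/EBP-ATF composite element TGATGNAA, a motif bound by Atf4 with a C/EBP partner, and it begins 112 bases before the end of the window. ATTGGGCCACG matches the ER stress element II (ATTGG, any base, then CCACG), which Atf6 and Xbp1 are known to use, and its first 5 letters are also a CCAAT box read in reverse. TGACATGGC matches the core of the antioxidant response element, TGACNNNGC. CCAAT near the end of the window is a further CCAAT box. In the Stc2 window the single match was a CCAAT box, read in reverse. Of 32851 promoter windows, 10 (0.0304%) held the ER stress element II and 1134 (3.45%) the C/EBP-ATF composite element. The antioxidant core was in 10.2% and the CCAAT box in 33.8%. The ER stress element (CCAAT and CCACG with 9 bases between, 0.113% of windows), the unfolded protein response element TGACGTGG (0.563%) and the cyclic AMP response element TGACGTCA (1.55%) had no match in either window. Since the motifs were chosen with these sequences known, nothing is read from how rare a match is. These are matches of letters, and elements elsewhere in the genes were not searched.

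Depth differed widely between libraries. Estimated counts summed to between 34.3 and 56.9 M per library, of which rows holding ribosomal RNA type transcripts took 1.70% to 88.6%. Levels are in CPM, estimated counts per 1 M of the library size after scaling by edgeR's TMM method, and these scaled sizes ran from 1.34 M (selenite 0.1, batch 5) to 224 M (HCA with selenite 1, batch 6). Scaled sizes had a median of 11.8 M in the control and of 42.0 to 96.4 M in the other groups. Libraries of control batches 5 and 6 and selenite 0.1 batch 5 stood apart in earlier results of these data, and results are given without them where they touch the genes. Over the 6 groups, summed levels of 8 neuron markers had medians of 852 to 1067 CPM. Tubb3, a neuron-specific tubulin, ranged from 408 to 1339 CPM over the 36 libraries. In bulk RNA, fewer cells of a type and less RNA per cell cannot be told apart.

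Stc2 was low in all groups without HCA. In the control its level was 0.580 CPM ± 0.130 (SD, n = 6), with a lowest value of 0.409, a median of 0.563 and a highest of 0.812 CPM. With selenite at 0.1 it was 0.791 ± 0.405 (lowest 0.343, median 0.682, highest 1.49), and with selenite at 1 it was 0.741 ± 0.156 (lowest 0.589, median 0.718, highest 0.986). All 3 groups overlapped, and 17 of their 18 libraries lay below 1 CPM. The exception was selenite 0.1 batch 5, whose 1.49 CPM rests on 2 counts, with a 95% exact Poisson interval of 0.181 to 5.40 CPM that covers counting error only. Control libraries were similarly thin in 3 batches, with 4 counts in batch 2, 2 in batch 5 and 3 in batch 6, and a level of 0.570 CPM in batch 5 had an interval of 0.0690 to 2.06 CPM.

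With HCA the Stc2 level was 2.37 CPM ± 0.555 (SD, n = 6; lowest 1.56, median 2.45, highest 3.03). HCA with selenite at 0.1 gave 2.21 ± 0.791 (lowest 1.47, median 1.95, highest 3.41), and HCA with selenite at 1 gave 2.68 ± 0.258 (lowest 2.26, median 2.71, highest 2.96). Here counts ran from 36 to 597 per library, so counting error was smaller than in the control. The 18 HCA libraries, at 1.47 to 3.41 CPM, overlapped with the 18 others only through selenite 0.1 batch 5. The groups with and without HCA did not overlap at selenite 0 and 1, as in 155 (0.606%) and 116 (0.453%) of all rows tested, and they overlapped at selenite 0.1, where 147 rows (0.574%) did not. Nothing is read from these shares, since the row was picked for the difference.

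**Figure D1:**
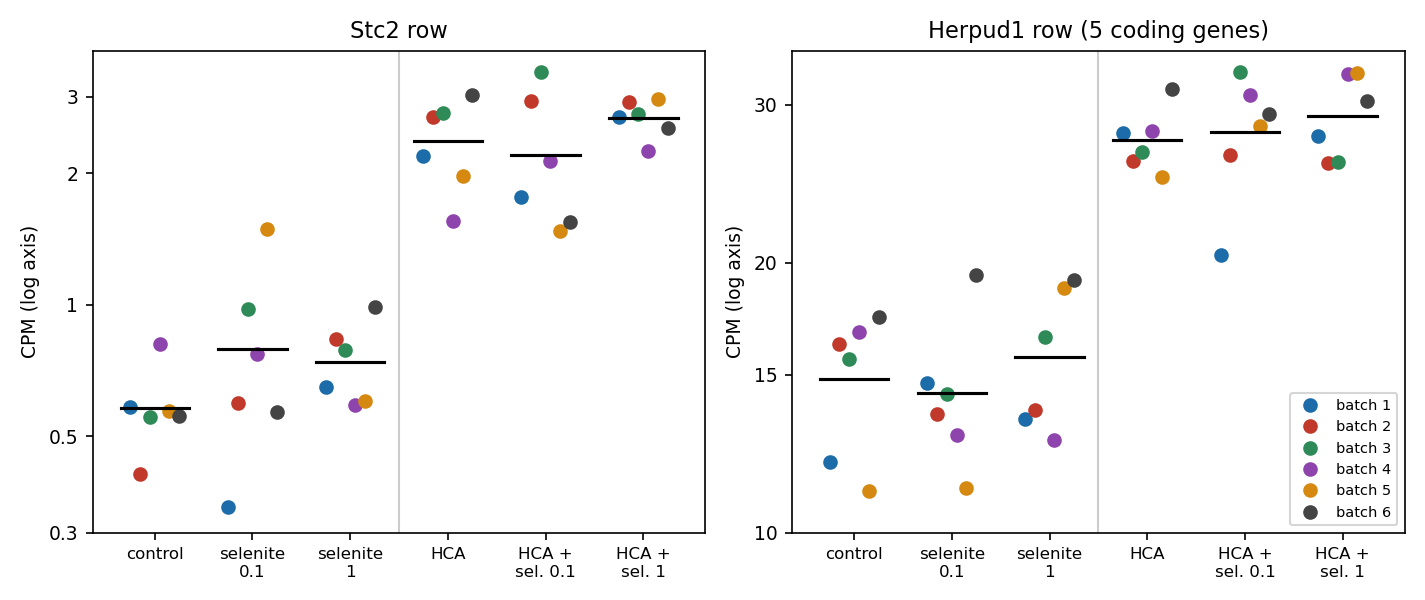
Level of the Stc2 row (left) and the Herpud1 row (right) in CPM, on log axes, in each of 36 libraries by group (sel., selenite); colours mark the 6 culture batches and black lines the group means. The Herpud1 row lay at 11.1 to 19.4 CPM without HCA and at 20.4 to 32.6 CPM with it, while in the Stc2 row 1 library without HCA (selenite 0.1, batch 5) reached into the HCA range.

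The Herpud1 row ran at 14.9 CPM ± 2.63 (SD, n = 6; lowest 11.1, median 15.9, highest 17.4) in the control. It was 14.3 ± 2.76 (lowest 11.2, median 13.9, highest 19.4) with selenite at 0.1 and 15.7 ± 2.83 (lowest 12.7, median 15.1, highest 19.1) with selenite at 1. As for Stc2, these 3 groups overlapped one another throughout. With HCA the row was at 27.4 ± 2.21 CPM (lowest 24.9, median 27.2, highest 31.2). HCA with selenite at 0.1 gave 28.0 ± 4.27 (lowest 20.4, median 28.8, highest 32.6), and HCA with selenite at 1 gave 29.1 ± 3.09 (lowest 25.8, median 29.0, highest 32.6). Every HCA library lay above every library without HCA. Across all rows tested, 28 (0.109%) had that separation, and here too nothing is read from the share. A single library is thin for this row, selenite 0.1 batch 5 with 15 counts, an interval of 6.27 to 18.5 CPM.

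In order of group means, Stc2 went from control through selenite 1, selenite 0.1, HCA with selenite 0.1 and HCA to HCA with selenite 1. Along that order the step from selenite 0.1 to HCA with selenite 0.1 (0.791 to 2.21 CPM) exceeded the SD of either group. The step from control to selenite 1 (0.580 to 0.741 CPM) exceeded the SD of control (0.130) and, slightly, that of selenite 1 (0.156). That from HCA to HCA with selenite 1 (2.37 to 2.68 CPM) exceeded the SD of the latter (0.258) but not that of HCA (0.555). The 2 other steps were smaller than the SD of either group. The Herpud1 row was ordered selenite 0.1, control, selenite 1, HCA, HCA with selenite 0.1, HCA with selenite 1. Its 1 step beyond the SDs was that between the groups without and with HCA, from 15.7 to 27.4 CPM.

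As a fold, Stc2 was 4.03 times as high with HCA as in the control, a log2 difference of 2.01 with a standard error (SE) of 0.28 and a 95% interval of 1.43 to 2.59. At selenite 0.1 the log2 difference was 1.67 (SE 0.28), or 3.18-fold, and at selenite 1 it was 1.87 (SE 0.26), or 3.65-fold. Leaving out the 3 libraries that stood apart gave 1.99, 1.77 and 1.87. The corresponding log2 differences of the Herpud1 row were 0.88 (SE 0.14; 1.84-fold), 0.95 (SE 0.14; 1.93-fold) and 0.89 (SE 0.14; 1.86-fold), and 0.86, 0.90 and 0.89 without the 3 libraries. The Herpud1 row thus differed by a little under 1 log2 unit at each selenite dose. Both rows are among the 58 (0.227%), 41 (0.16%) and 39 (0.152%) rows with an adjusted p under 0.05 in these contrasts by edgeR, and among the 29 rows (0.113%) called higher in all 3. At selenite 0.1, Stc2 was not called when the compared groups were fitted alone (1.67, SE 0.38) or when batch 2 was left out (1.53, SE 0.32). Those contrasts chose the rows, so these calls support nothing.

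Within batches, the HCA library had the higher Stc2 level in 17 of 18 pairs. Against the control, the log2 CPM differences in batches 1 to 6 were 1.87, 2.64, 2.26, 0.92, 1.75 and 2.39. At selenite 0.1 they were 2.28, 2.25, 1.77, 1.44, -0.02 and 1.40, and at selenite 1 they were 2.01, 1.77, 1.76, 1.89, 2.25 and 1.34. The pair without a difference is batch 5 at selenite 0.1, whose library without HCA held the 2 counts described above. Without batch 5 the fitted log2 difference at selenite 0.1 was 1.86.

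The Herpud1 row was higher with HCA in 18 of 18 pairs, as were 94 of all rows tested (0.367%). Its within-batch log2 differences ran from 0.68 to 1.21 against the control, from 0.47 to 1.34 at selenite 0.1 and from 0.65 to 1.35 at selenite 1. The smallest was in batch 1 at selenite 0.1, where the HCA library held the lowest Herpud1 row level of the HCA libraries. Batch 4 had the smallest Stc2 difference against the control (0.92), and batch 2, which had the largest for Stc2 (2.64), had the smallest for the Herpud1 row (0.68).

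**Figure D2:**
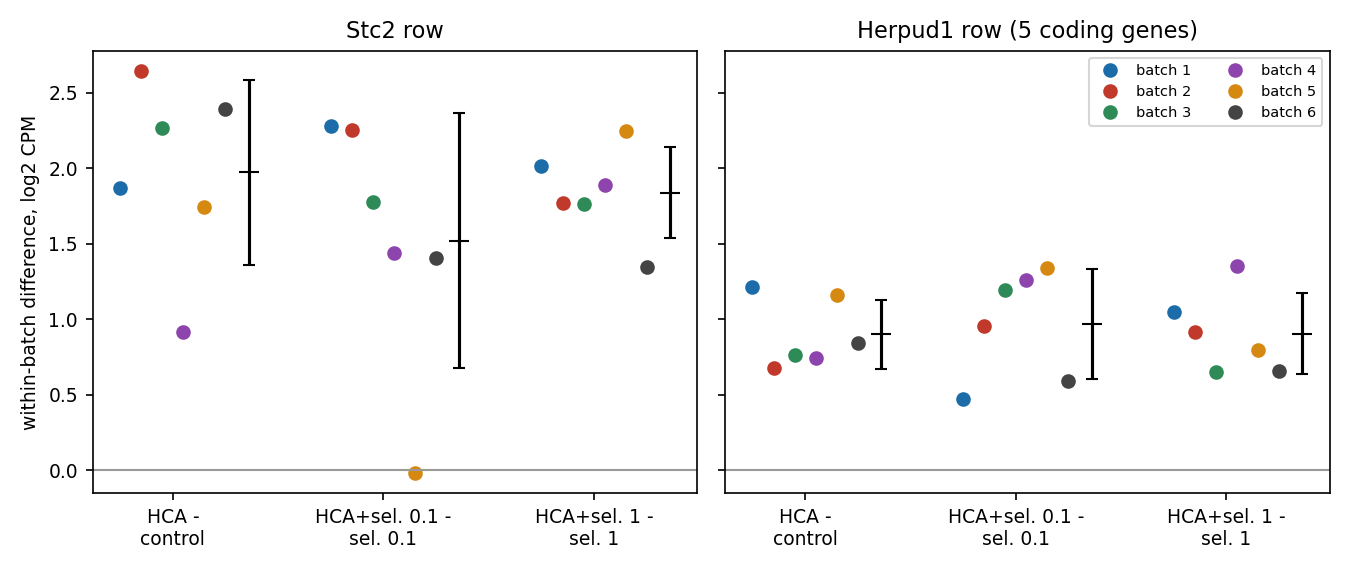
Difference in log2 CPM between the library with HCA and the library without it in the same culture batch, at selenite 0, 0.1 and 1 (coloured points, batches 1 to 6), with the mean and SD over batches in black. For Stc2 17 of 18 points lie above 0 and batch 5 at selenite 0.1 lies at -0.02, and for the Herpud1 row all 18 lie between 0.47 and 1.35.

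Depth moved with HCA in part, since the HCA library had the larger scaled size in 12 of the 18 pairs. In the 6 pairs whose other library was deeper, the Stc2 difference ran from 1.40 to 2.28 (median 2.07) and the Herpud1 row difference from 0.47 to 1.35 (median 0.71). In the 12 pairs whose HCA library was deeper the medians were 1.77 and 1.00. Summed marker levels of some cell types also differed in their medians between HCA and control, with overlapping ranges, although no single marker was called in an HCA contrast. The summed level of 4 astrocyte markers had a median of 33.2 CPM (range 26.9 to 44.3) in the control and 21.8 CPM (13.7 to 33.5) with HCA, and that of 4 radial glia and progenitor markers 95.3 CPM (67.2 to 115) and 54.1 CPM (45.5 to 85.6). Of the progenitor markers Nes, Hes5 and Vim were lower with HCA, while Pax6 went the other way (log2 difference 1.43, SE 0.82), at 0.583 and 1.40 CPM. The 8 neuron markers summed to 852 CPM (729 to 983) and 1067 CPM (886 to 1295). Most of that sum was Tubb3, at means of 767 and 987 CPM, and all 8 had log2 differences above 0. Of the 8 microglia markers on the list 4 were tested, with summed medians of 6.49 and 6.51 CPM and Itgam at a median of 0. The 3 fibroblast markers tested had summed medians of 9.77 and 11.1 CPM. Their sums varied widely between libraries, from 4.87 to 169 CPM in the control and from 5.29 to 189 CPM with HCA. The part of these differences in the results was not tested.

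Selenite was then compared at matched HCA status. For Stc2, the log2 difference from control was 0.24 (95% interval -0.35 to 0.84) at selenite 0.1 and 0.32 (-0.25 to 0.89) at selenite 1. In the presence of HCA it was -0.10 (-0.61 to 0.42) at 0.1 and 0.18 (-0.33 to 0.70) at 1. None passed the test (edgeR's quasi-likelihood test, Benjamini-Hochberg adjusted p of 1.00 in each). Exact two-sided permutation tests of log2 CPM, which with 6 against 6 libraries cannot go below 0.00216, gave p = 0.0519 for selenite 1 against control, higher in 5 of 6 batches, and 0.232 to 0.582 for the others. These permutations did not keep the pairing of libraries by batch. Adjusted over the 12 selenite comparisons and interactions of both rows, that lowest exact p became 0.623. The intervals leave room for a change of up to 0.89 on the log2 scale without HCA, so equal levels are not shown.

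The Herpud1 row gave narrower intervals. Its log2 difference from control was -0.04 (95% interval -0.32 to 0.25) at selenite 0.1 and 0.07 (-0.21 to 0.36) at selenite 1, and against HCA alone it was 0.03 (-0.25 to 0.31) and 0.09 (-0.19 to 0.36). The exact permutation p-values ran from 0.303 to 0.892, and the adjusted edgeR p was 1.00 in each. A shift of more than about 0.36 on the log2 scale in either direction lies outside all 4 intervals. A selenite effect was thus not detectable here for either row.

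**Figure D3:**
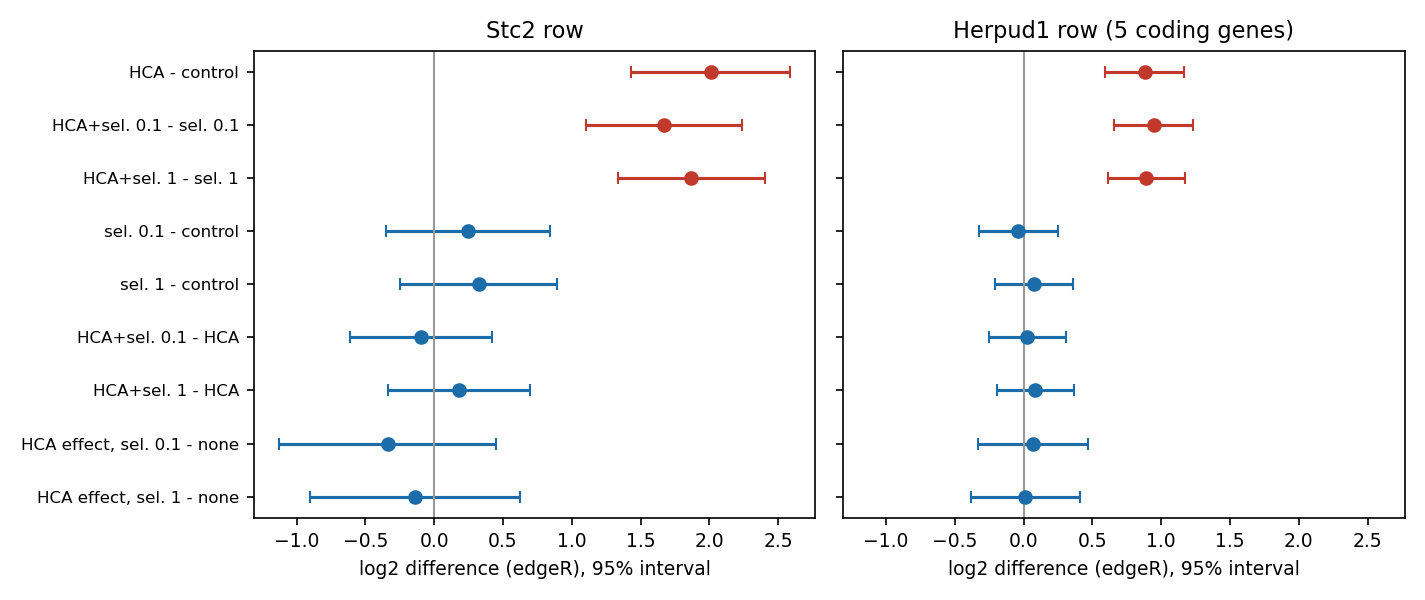
Fitted log2 differences with 95% intervals for the Stc2 row (left) and the Herpud1 row (right): red, HCA against no HCA at selenite 0, 0.1 and 1; blue, the 4 selenite contrasts and, below them, the change of the HCA difference at selenite 0.1 and 1 from that without selenite. All blue intervals include 0, and the red points lie at 1.67 to 2.01 for Stc2 and at 0.88 to 0.95 for the Herpud1 row.

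The HCA difference itself was compared between selenite doses. For Stc2 it was lower by 0.34 on the log2 scale at selenite 0.1 than without selenite (interaction -0.34, 95% interval -1.13 to 0.45) and by 0.14 at selenite 1 (-0.14, -0.91 to 0.62). For the Herpud1 row the interactions were 0.07 (-0.33 to 0.47) and 0.01 (-0.38 to 0.41). The edgeR adjusted p was 1.00 for all 4, and exact sign-flip permutation p-values over the 6 batches, which cannot go below 0.0312, were 0.312, 0.719, 0.781 and 1. Across the 25588 rows, 0 (0%) passed in each of the 4 selenite contrasts and 2 interactions by edgeR, with 207 to 1363 rows at an unadjusted p under 0.05. limma voom also called 0 and DESeq2 called 2 to 19.

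The genes that share the Herpud1 row can be followed only through other transcripts, in rows that the choice did not use. The transcripts that share the row lie in no other row. The rows that follow therefore cannot show which transcript carries the difference of the Herpud1 row. The 4 other coding genes had 20 further tested rows holding another of their transcripts, and none of these was called in the 3 HCA contrasts. Ints12 encodes a subunit of the Integrator complex. Its 2 other rows, both holding non-coding Ints12 transcripts and 7 coding genes besides, had log2 differences of 0.07 and 0.07 against the control. Sema3f encodes a secreted semaphorin that repels axons. Its coding transcript Sema3f-204 has a row to itself, with log2 differences of -0.78 (SE 0.38), 0.32 (SE 0.38) and -0.14 (SE 0.37) at selenite 0, 0.1 and 1. One row with Sema3f-203 had a log2 difference of 5.86 (SE 1.67) against the control at a mean of 0.102 CPM, a level too low to read, and it was not called. Ggact encodes gamma-glutamylaminecyclotransferase. Of its 5 other rows, the largest difference against the control was 0.76 (SE 0.32), in a row shared with Kcnk9 and Stxbp2. Sp140 encodes a nuclear body protein of immune cells. Its 4 other tested rows ran from -0.85 to 0.71.

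Herpud1 itself has 6 annotated transcripts, 5 of them in tested rows. Herpud1-201, the other long coding transcript, shares a row with coding transcripts of Ache, Slc5a2 and Spg7, at a mean of 5.30 CPM. In that row the log2 HCA differences were 0.66 (SE 0.30), 0.58 (SE 0.30) and 0.86 (SE 0.29), and none passed (edgeR adjusted p = 0.585, 1.00 and 0.739). The 3 further rows hold non-coding or decay-prone transcripts of Herpud1 together with 3 to 14 other coding genes, and their differences against the control were -0.03 to 0.27. The 4 other rows of Stc2 hold non-coding Stc2 transcripts with 2 to 5 other coding genes. Their differences against the control ran from -0.63 to -0.10, and none was called in any HCA contrast. The rows that carry the identifiers of Stc2 and Herpud1 themselves, which under the inference hold other genes, were not called either. The row labelled Stc2 had log2 HCA differences of 0.02, 0.46 and -0.19, and the row labelled Herpud1 had -0.28, 0.20 and 0.15.

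**Figure D4:**
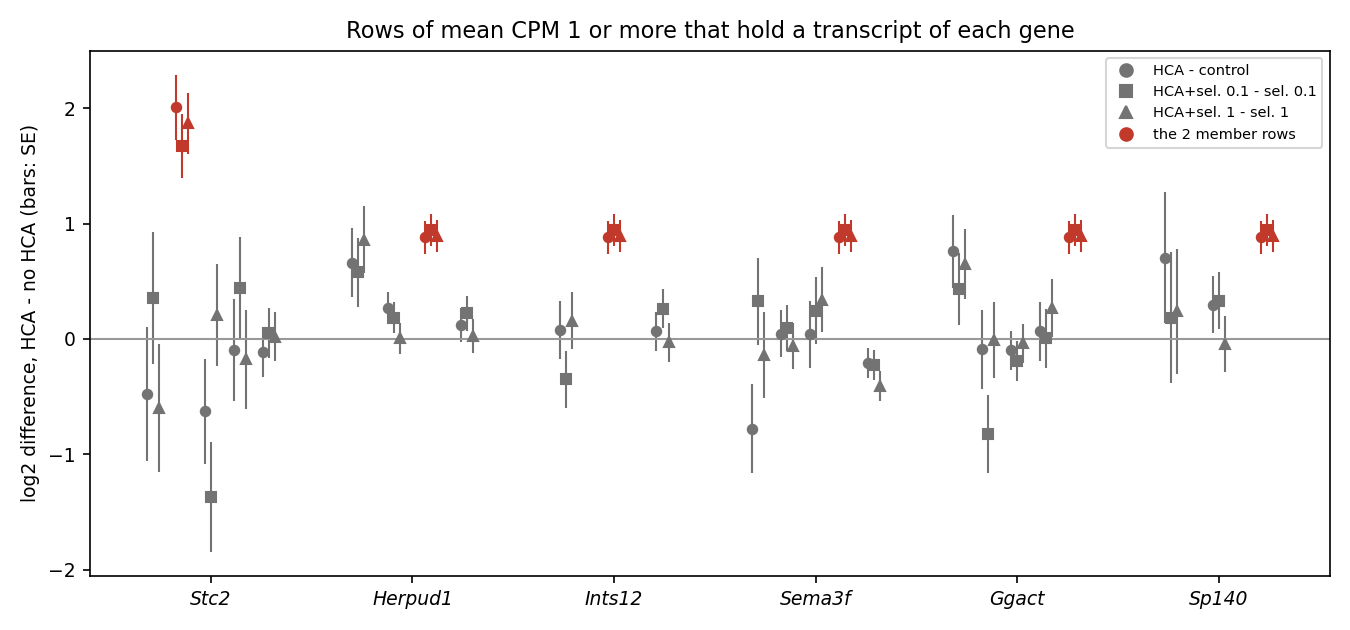
Log2 difference between HCA and no HCA, with SE, in every tested row of mean level 1 CPM or more that holds a transcript of the named gene; the 3 marker shapes stand for selenite 0, 0.1 and 1, and the Herpud1 row is repeated in red under each of the 5 coding genes it holds. Grey rows hold other transcripts of the gene, mostly with other genes, and none of them was called.

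The genes that work with Stc2 and Herpud1 were read from lists, each gene through a row holding coding transcripts of that gene alone. The Atf4 branch of the integrated stress response had the most called genes of the lists. Of its 42 genes 15 could be read, Stc2 included, and 7 were higher with HCA against the control, 8 at selenite 0.1 and 6 at selenite 1, with none lower. Each of these counts, and each median below, includes Stc2, which was picked for this difference. Of all rows, 0.199%, 0.145% and 0.125% were called higher and 0.0274%, 0.0156% and 0.0274% lower. The list's median log2 differences were 0.77, 0.81 and 0.66, beside 0.09, 0.04 and -0.01 over all 7129 genes readable in this way. The lists were drawn up with earlier results known, so these counts are not independent evidence.

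Among the Atf4 genes, Cars, the cysteinyl-tRNA synthetase gene, rose from 11.3 CPM ± 3.28 (SD, n = 6) to 31.1 ± 3.20, a log2 difference of 1.44 (SE 0.14). Aars, the alanyl-tRNA synthetase gene, rose from 76.9 ± 12.6 to 152 ± 11.6 CPM (0.98, SE 0.15). Eif4ebp1, a repressor of cap-dependent translation, rose by 1.44 (SE 0.23), and Shmt2, the mitochondrial serine hydroxymethyltransferase, by 1.08 (SE 0.24). Slc3a2, the heavy chain shared by amino acid transporters including the cystine-glutamate exchanger, rose by 0.67 (SE 0.12), and Gpt2, a mitochondrial alanine aminotransferase, by 0.77 (SE 0.14). These are edgeR differences between HCA and control with adjusted p under 0.05, and Stc2, at 2.01, had the largest log2 difference of the 15. Nothing is read from that rank, since Stc2 was picked for this difference. Shmt2 did not pass at selenite 1 (0.64, SE 0.23), and Aldh18a1, a proline synthesis enzyme, passed only at selenite 0.1 (1.03, SE 0.20).

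Several defining members of this branch lie only in rows shared with other genes, and they were looked up after the values were known. The row holding Atf4 with Npr2 and Pcsk1 had a log2 HCA difference of 1.49 (SE 0.13) against the control. That holding Asns, the asparagine synthetase gene, with Adipoq and Dap3 had 1.48 (SE 0.16). That holding Chac1, a glutathione-degrading enzyme, with Zbtb20 had 1.56 (SE 0.23), and that holding the pseudokinase gene Trib3 with Sult4a1 had 2.27 (SE 0.49). These 4 passed in all 3 HCA contrasts. Another row holding Atf4, with Pdzd11, Pkp4 and Slc39a11, had a mean of 18.1 CPM. It was at 0.39 (SE 0.28) against the control and passed in no HCA contrast. Further rows holding Asns ran from -1.15 to 0.50 against the control, and none passed in any HCA contrast. The one at 0.50 (SE 0.52) had a mean of 50.1 CPM, beside 52.8 CPM for the Asns row that passed. A row holding Ddit3, the CHOP factor, with Pgbd5 was at 1.02 (SE 0.25) and did not pass (edgeR adjusted p = 0.0868), and the row with the highest mean level among those holding Ddit3 was at 0.17 (SE 0.44).

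The ER chaperones and sensors of the unfolded protein response had no called gene. Of 29 listed genes 11 could be read, and none passed in the 3 HCA contrasts. Their median log2 difference was 0.24 against the control, 0.09 at selenite 0.1 and 0.15 at selenite 1. In the 58 rows holding any coding transcript of the listed genes, none was called either. Of all rows tested, 0.227%, 0.16% and 0.152% were called in these contrasts. At that background the absence of calls says nothing of the list. Hspa5, the major chaperone of the ER lumen, lies with Prkacb in a row of mean 65.3 CPM, whose differences were 0.23 (SE 0.27), 0.01 (SE 0.27) and 0.23 (SE 0.27). Of the 3 rows holding Xbp1 transcripts, with 3 to 7 other coding genes, none passed, at 0.09 to 0.30 against the control. Dnajb9, an Xbp1 target, was in a row with Tcf4 at 0.02 (SE 0.18), and Hsp90b1, the ER form of the Hsp90 chaperone, in a row with Trappc6b at -0.06 (SE 0.38).

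The partners of Herpud1 in ER-associated degradation had no called gene among the 15 of 27 that could be read, with a median log2 difference of 0.11 against the control. Syvn1, the ubiquitin ligase of the Hrd1 complex, was at -0.54 (SE 0.89) in a row of its own at a mean of 0.434 CPM, and at 0.40 (SE 0.15) in its most abundant row, shared with Unc13a. Sel1l, its adaptor, was at 0.17 (SE 0.32). Of 65 rows holding any coding transcript of the list, 1 was called in each HCA contrast, and that was the Herpud1 row, picked for this difference. Of all rows tested, 0.227%, 0.16% and 0.152% were called, so the absence of other calls says nothing of the partners.

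ER calcium handling gave 0 called of 17 genes readable among 27 in each of the 3 HCA contrasts by edgeR, in which 0.227%, 0.16% and 0.152% of all rows were called, a background at which 0 of 17 says nothing of the list. Without adjustment, 2015, 1295 and 853 of all rows had an edgeR p under 0.05. The median of the list was 0.21 against the control. Atp2a2, the SERCA pump that fills the ER with calcium, was at -0.08 (SE 0.52), Itpr1, the inositol trisphosphate receptor that releases it, at -0.16 (SE 0.41), and Stim1, the sensor of store depletion on which stanniocalcin-2 is known to act, at -0.23 (SE 0.86). These SEs are wide, and the row of highest mean level for Atp2a2, shared with Gm10181, had 0.24 (SE 0.21). The Stim1 row had a mean of only 0.530 CPM. The most abundant row holding Stim1, at 10.1 CPM, is shared with B3gat2, Dpm2, Fblim1 and Prkacb. It had 0.24 (SE 0.16) against the control, -0.11 (SE 0.16) at selenite 0.1 and -0.12 (SE 0.16) at selenite 1. In the stanniocalcin and growth factor list, Stc2 was the 1 called gene of 5 read among 12. Stc1, its paralogue, lies in a row with Hnrnpd at -0.25 (SE 0.27), and Pappa, the protease that stanniocalcin-2 inhibits, in a row with Zfp580 at 0.03 (SE 0.22). In a list of 12 oxidative stress genes under Nrf2, 3 could be read and 0 were called. No gene of any of these lists was called in the selenite contrasts. In each of those, 0 (0%) of the 25588 rows passed by edgeR, so this says nothing of the lists.

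**Figure D5:**
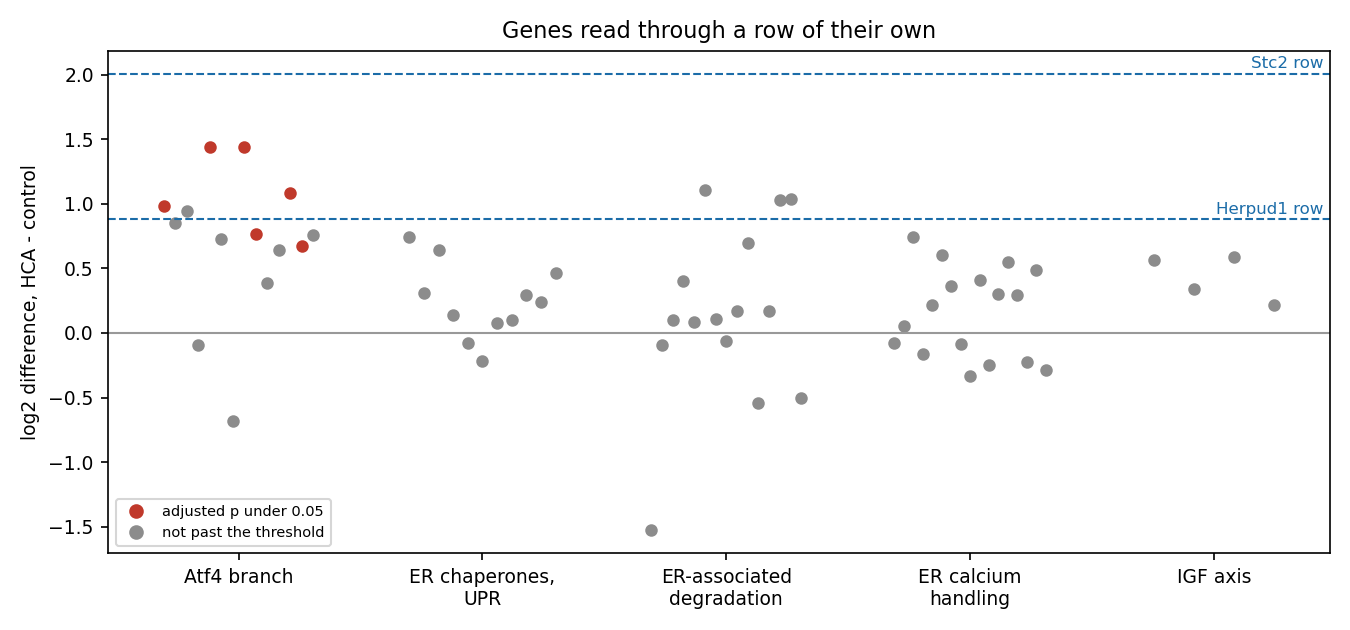
Log2 difference between HCA and control for each listed gene other than Stc2 read through a row of its own, by list, in red where the edgeR adjusted p was under 0.05; dashed lines mark the Stc2 row (2.01) and the Herpud1 row (0.88). Red points are in the Atf4 branch and in no other list shown.

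The rows whose pattern over the 36 libraries was most like the 2 rows were named by Pearson's r of log2 CPM, among 5023 rows of 1 coding gene and a mean of at least 1 CPM. For Stc2 they were Cars (r = 0.86), Gpt2 (0.81), Eif4ebp1 (0.81), Slc3a2 (0.79) and Nr4a1 (0.79), an immediate early nuclear receptor gene. For the Herpud1 row they were Aars (0.95), Slc3a2 (0.93), Cars (0.92), Nfil3 (0.91), a bZIP repressor, and Siah2 (0.87), a ubiquitin ligase. The 2 rows had an r of 0.82 with each other. The libraries share groups and batches, so these values describe mainly the split by HCA. After group and batch means were removed, the closest rows were others: Neb, Ufsp1, Ttll7, Spock2 and Bmp3 for Stc2 (r = 0.62 to 0.74), and Stn1, Ppp1r11, Gsto1, Pes1 and Snap47 for the Herpud1 row (r = 0.83 to 0.89). None of these 10 was among the 5 closest before that step. They were picked as the highest among the 5023 rows and were not tested, so no shared regulation is read from them. The 5 for Stc2 had means of only 1.01 to 2.65 CPM.

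Across the 6 batch means no joint variation of the 2 rows was detectable. Without HCA Pearson's r was 0.15 (exact permutation p = 0.878, adjusted over 2 relations 0.878) and Spearman's rho -0.14 (exact permutation p = 0.803, adjusted 0.803). With HCA r was -0.35 (exact permutation p = 0.444, adjusted 0.878) and rho -0.49 (exact permutation p = 0.356, adjusted 0.711). With the 2 batches farthest from the median Stc2 level left out, r was -0.80 and -0.24 over 4 batches. The relation without HCA thus changed sign with 2 batches, and with 6 batches neither relation can be pinned down.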

How the data were processed

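The data were 36 RNA-seq libraries, 6 per group, depleted of ribosomal RNA with Ribo-Zero Gold per the labels' protocols. Per the submitters' processing notes, STAR, Salmon and the GRCm38 build were used. Their versions, the annotation release, the filter behind the table and strand handling are not given in the sources used here. Although named for TPM, the deposited table has columns that sum to 34.3 to 56.9 M, so its values were taken as the authors' estimated counts, partly whole (7.97% to 58.8% of values per library, within 1e-06). Salmon splits reads between similar transcripts by estimate, which adds error to rows of few counts.

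Estimated counts were rounded and tested with edgeR 4.0.16 in R 4.3.3 (TMM, filterByExpr by group, quasi-likelihood test over all 36 libraries, without a batch term). P-values were adjusted by Benjamini-Hochberg over 25588 rows, with a threshold of 0.05. SEs are the log2 difference over the square root of F, and intervals use 30 degrees of freedom. Log2 CPM used a prior count of 2. DESeq2 1.42.0 and limma 3.58.1 (voom) were alternatives. The steps were tested on simulated data without batches, with changes placed only in rows of higher average level than the Stc2 row. That test therefore does not bear on rows of so few counts. Culture batch in the labels pairs the libraries: deviations from group means had a median correlation of 0.13 within batches (90 pairs) and -0.02 between (450).

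The 2 rows and the gene lists were chosen with earlier results of these data known. Named genes were the 2 rows, the genes they hold, listed genes called in an HCA or selenite contrast, 12 fixed ER and calcium genes, and the 5 rows most like each member. Multi-gene rows were added after values were seen. Markers of oligodendrocyte lineage (4 tested, summed medians 9.91 CPM in control and 8.21 with HCA) and endothelial and mural cells (1 tested, 0.251 and 0.300 CPM) were also read.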

Additional observations from a re-analysis of the deposited data

How the results depend on the processing

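With culture batch as a replicate block, the log2 HCA differences were 2.00, 1.69 and 1.88 for Stc2 and 0.88, 0.95 and 0.90 for the Herpud1 row at selenite 0, 0.1 and 1, and both rows stayed among the called rows in these contrasts. No selenite effect or interaction of either row passed under the block. Of 192 alternative values of the 2 rows' selenite differences and interactions, 175 kept direction and side of the threshold and 17, near 0, changed sign. The HCA differences, which have no test, kept their sign in all 96 alternative values, from 1.53 to 2.24 for Stc2 and from 0.79 to 1.04 for the Herpud1 row. Stc2 left the rows called at selenite 0.1 in 2 of 16 alternatives, with the compared groups alone (1.67) and without batch 2 (1.53), and neither row left them otherwise.

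The selenite 0.1 difference from control became -0.045 for Stc2 and 0.015 for the Herpud1 row with limma voom. The selenite 1 difference of the Herpud1 row became -0.029 with DESeq2, -0.024 with DESeq2 size factors in edgeR, -0.020 with a depth covariate and -0.024 with a replicate block and without the 3 libraries that stood apart. Leaving out 1 batch at a time gave, for Stc2, -0.21 to 0.070 for HCA with selenite 0.1 against HCA and -0.37 to 0.054 for the interaction at selenite 1. For the Herpud1 row it gave -0.10 to 0.030 and -0.048 to 0.14 for selenite 0.1 and 1 against control, -0.030 to 0.10 for HCA with selenite 0.1 against HCA, and -0.024 to 0.20 and -0.084 to 0.073 for the interactions. The cause was not tested.

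Counts over all rows moved more: against the main 58, 41 and 39 rows in the HCA contrasts, fits of the compared groups alone gave 22, 23 and 22, DESeq2 gave 176, 154 and 120, and leaving out 1 batch gave 27 to 68, 23 to 40 and 21 to 42. No scaling moved the median of all rows by over 0.1. Depth limits Stc2, since 4 libraries without HCA held 2 to 4 counts of it. The gene names rest on an inferred shift, and the Herpud1 row cannot be split into its 6 transcripts.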
